A study of Mus musculus with 6 samples.

Results

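The genes described here carry cells from G1 into S phase and copy the genome. They are the G1 cyclins and their kinases, E2F factors with a pocket protein, the licensing and helicase proteins of replication origins, and the clamp, polymerases and nick-sealing enzymes of the replication fork. Members were taken by name from a list of 49 genes. No measured value entered that rule, but the list was chosen with earlier results of these data known. Of these, 48 had a row in both deposited expression tables, which shared 14082 genes; Rb1 was not analysed here. RNA was sequenced from mouse NE-4C cells, a neuroectodermal stem cell line that lacks functional p53. The H3.3WT, Cbfa2t2_KO and H3.3K27M groups had 2 libraries each. All 3 lines, controls included, were labelled as knockouts of H3f3a, an endogenous gene for histone H3.3. Into that background the H3.3WT line had received a stable copy of wild-type H3.3 with an HA tag. The Cbfa2t2_KO line carried the same tagged wild-type H3.3 and also a knockout of Cbfa2t2, which encodes a transcriptional corepressor. The H3.3K27M line carried an HA-tagged H3.3 with lysine 27 replaced by methionine and no knockout of Cbfa2t2. The labels do not state whether a line was 1 clone or a pool, or whether its 2 libraries came from separate cultures, so the p-values below measure the spread between libraries, which may be technical.

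Replication is prepared before it starts. D-type cyclins with Cdk4 or Cdk6, and cyclin E with Cdk2, phosphorylate pocket proteins and release E2F factors, which bind the promoters of many replication genes. In G1 the origin recognition complex, Cdc6 and Cdt1 load the MCM helicase ring onto DNA, and geminin blocks reloading later in the cycle. In S phase Cdc45 and the GINS complex join the ring to make the active helicase. Primase and polymerase alpha lay down primers, the RFC loader places the PCNA clamp for polymerases delta and epsilon, Fen1 and Lig1 finish the lagging strand, RPA covers single strands and the CAF-1 chaperone puts histones on the new DNA.

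Values are FPKM, fragments scaled to transcript length and to the mapped fragments of the library. Levels may thus be ordered between genes within a library, while comparisons between libraries also depend on the scaling. Read depth per library was unknown, since the tables held no counts. FPKM summed to between 363586 and 419389 per library. Of 14 neural stem and progenitor markers, 12 had a row, and their sum was 209.9 and 217.9 FPKM in H3.3WT, 143.0 and 137.5 in Cbfa2t2_KO and 160.4 and 173.7 in H3.3K27M. Neither Sox1 nor Fabp7 was among those 12, and 5 of 7 epithelial markers had a row and summed to 128.3 to 155.5 FPKM in H3.3WT, 263.9 to 273.8 in Cbfa2t2_KO and 225.3 to 229.2 in H3.3K27M. Neuron markers, 6 of 10 with a row, summed to 84.1 and 87.6 FPKM in H3.3WT, 141.8 and 156.7 in Cbfa2t2_KO and 87.4 and 93.9 in H3.3K27M. Markers of a list did not all move as its sum did. Most of the neuron sum was Tubb3 (68.9 and 67.4 FPKM in H3.3WT, 123 and 138.9 in Cbfa2t2_KO). Stmn2 was also higher in Cbfa2t2_KO, while Rbfox3 and Elavl3 were lower. Of the progenitor markers, Vim and Prom1 were higher in both edited lines, and the epithelial marker Cdh1 overlapped between H3.3WT and each edited line. Of 7 leukocyte markers only Cd68 had a row (1.18 to 4.37 FPKM), and of 6 endothelial markers only Tek (0.157 to 0.689 FPKM). Cbfa2t2 RNA read 1.38 and 1.35 FPKM in H3.3WT, 1.02 and 0.769 in Cbfa2t2_KO and 2.02 and 0.856 in H3.3K27M, so its level did not by itself separate the knockout (adjusted p = 0.153). H3f3a, labelled as knocked out in every line, read 131.0 and 180.6 FPKM in H3.3WT and 66.3 to 82.1 in the other 4 libraries, with changes of -1.05 and -1.09 in the 2 edited lines (adjusted p = 0.00501 and 0.00708). Reads of the endogenous gene and of the tagged copy cannot be told apart in these tables, so neither gene checks the labels, and group names are those of the labels. Immediate early and heat shock genes, 12 of them, summed to 541.7 and 744.6 FPKM in H3.3WT against 159.6 to 202.5 in the other 4 libraries. Mitochondrially encoded genes, 9 of them, summed to 5314 and 5439 FPKM in H3.3K27M against 2795 to 4255 in the other 4. The part of these shifts in the results below was not tested.

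Replication genes were well expressed in all 3 lines. The median member stood at 19.7 to 23.7 FPKM in the 6 libraries, against 4.27 to 5.23 for all genes in both tables, and 41 or 42 of the 48 members lay above that median in each library. Averaged over the 3 groups, the highest levels were those of the helicase subunits Mcm5 (170.4 FPKM) and Mcm3 (141.4), the G1 kinase Cdk4 (137.6) and the clamp Pcna (117.0). The lowest were those of cyclin E2, Ccne2 (0.875), E2f2 (1.74), the polymerase alpha catalytic subunit Pola1 (1.90) and the pocket protein gene Rbl1 (2.47). In these bulk samples, fewer cells in a given phase of the cycle and less RNA in each cell cannot be told apart.

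**Figure D1:**
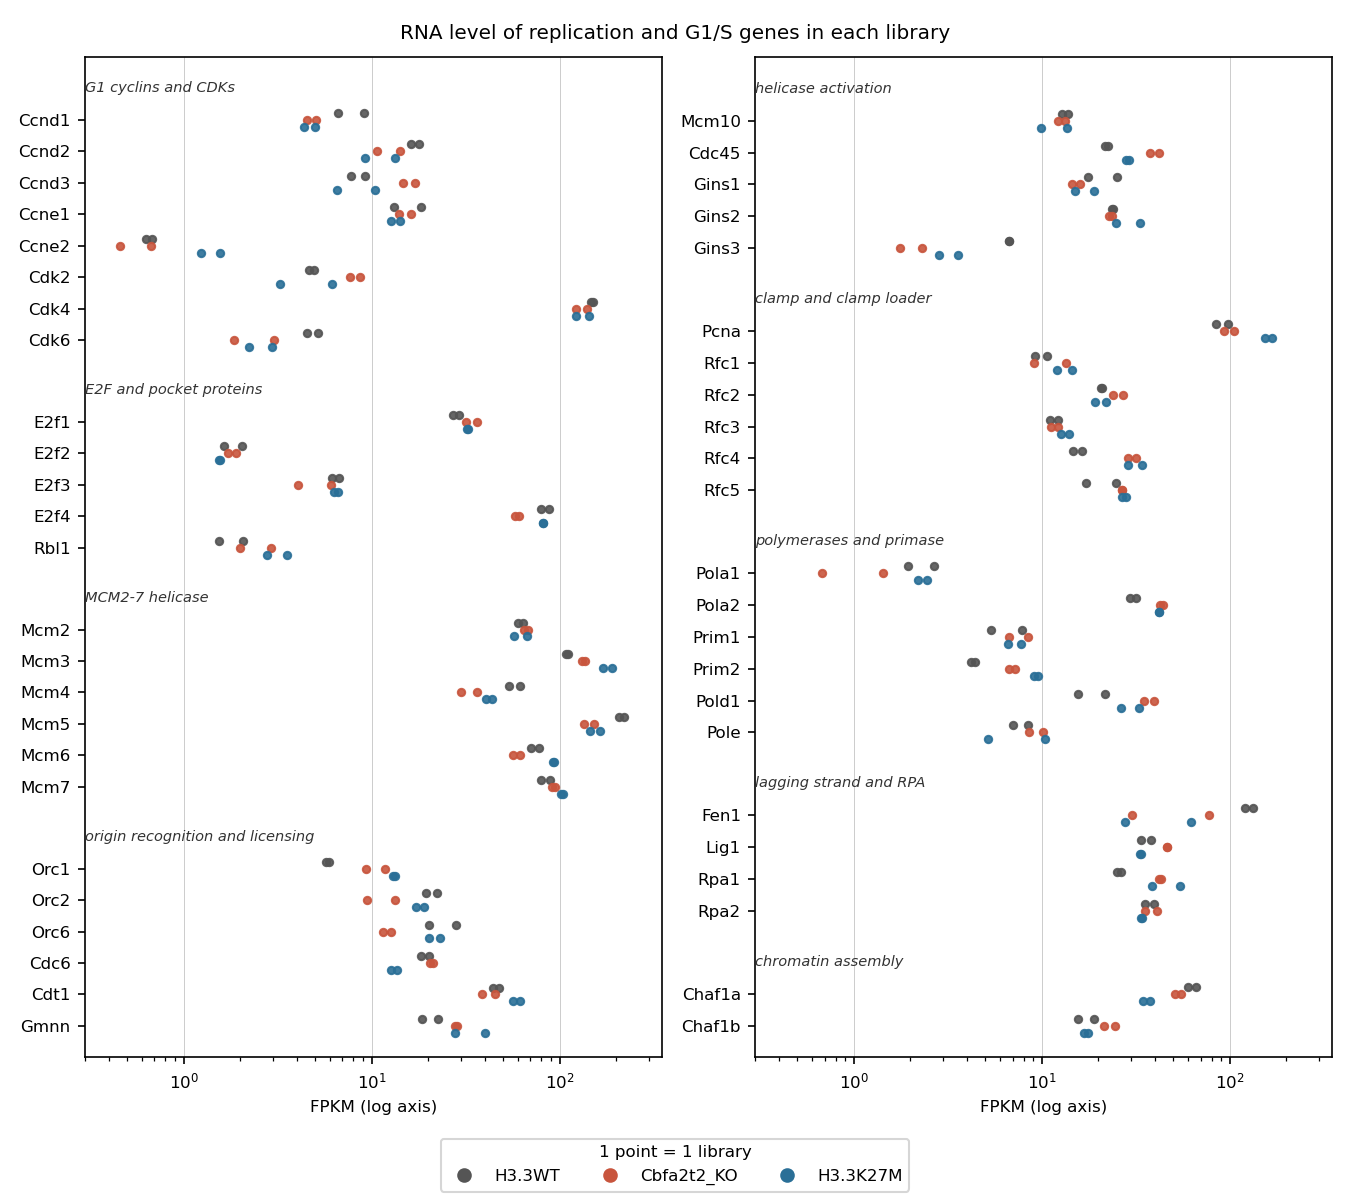
FPKM of each of the 48 genes on a log axis, ordered by role, with 1 point per library (grey H3.3WT, red Cbfa2t2_KO, blue H3.3K27M; 2 libraries each). Levels run from 0.457 FPKM for Ccne2 in a Cbfa2t2_KO library to over 200 for Mcm5 in H3.3WT, and Gins3, Fen1 and Cdk6 are highest in both H3.3WT libraries.

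In the plot of levels by library, the points of the edited lines lie to the right of H3.3WT for some subunits of a complex (Orc1, Rfc4, Prim2) and to the left for others (Gins3, Mcm5).

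In Cbfa2t2_KO cells, members changed in both directions. Of 47 members tested, 19 passed an adjusted p of 0.05 in limma's moderated test on log2(FPKM + 1), 9 higher and 10 lower than H3.3WT. Of all 11626 genes tested, 34.6% were called, 13.1% higher and 21.5% lower, so the members' 40.4% was near the background. The median log2 change was 0.10 over the members tested and -0.11 over all genes. The groups did not overlap for 36 of the members, against 70.4% of all genes. Calls in this comparison depended on the scaling and on the number of libraries. After median-of-ratios scaling, which moved the median of all genes to 0.00, 12 members were higher and 7 lower, and 50.8% of all calls were higher in place of 37.9%. With any library left out, fewer members passed, and fewer of all genes passed too. Such fits have less power. Here and below, a call lost in them does not by itself show that the change rested on that library.

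In H3.3K27M cells, compared with the same H3.3WT libraries, members again changed in both directions. Of 48 tested, 12 passed, 8 higher and 4 lower. The 8 include Ccne2, which reached the filter of 1 FPKM only through its H3.3K27M libraries. A correction for transcript GC, length and number of exons gave 8 higher and 9 lower. A fit with a replicate block by the numbers in the column names, which are not known to pair the libraries, gave 10 higher and 9 lower. Of all 11623 genes tested, 26.2% were called, 8.42% higher and 17.8% lower, so the members' share of 25% was again near the background in total, with 16.7% higher and 8.33% lower. The median log2 change was 0.01 over the members and -0.12 over all genes, and the groups did not overlap for 34 members, against 66.3% of all genes. Median-of-ratios scaling gave 11 higher and 4 lower, with 49% of all calls higher in place of 32.1%. Without either H3.3WT library or the second H3.3K27M library, fewer members passed, and fewer of all genes passed too.

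The direct test of H3.3K27M against Cbfa2t2_KO, with the spread estimated over all 6 libraries, is the only test here of a difference between the 2 edited lines. Of 47 members, 5 passed: Mcm6, Orc6 and Pcna were higher in H3.3K27M, and Ccnd3 and Cdc6 were lower. Over all 11464 genes 8.07% were called, 3.18% higher and 4.89% lower, beside 10.6% of the members. The groups did not overlap for 28 members, against 58.5% of all genes. Median-of-ratios scaling and the correction for transcript GC, length and number of exons each gave 6 higher and 2 lower. In a fit of the 4 libraries of these lines alone, only Orc6 passed. With any 1 of the 6 libraries left out, fewer members passed, and fewer of all genes passed too.

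**Figure D2:**
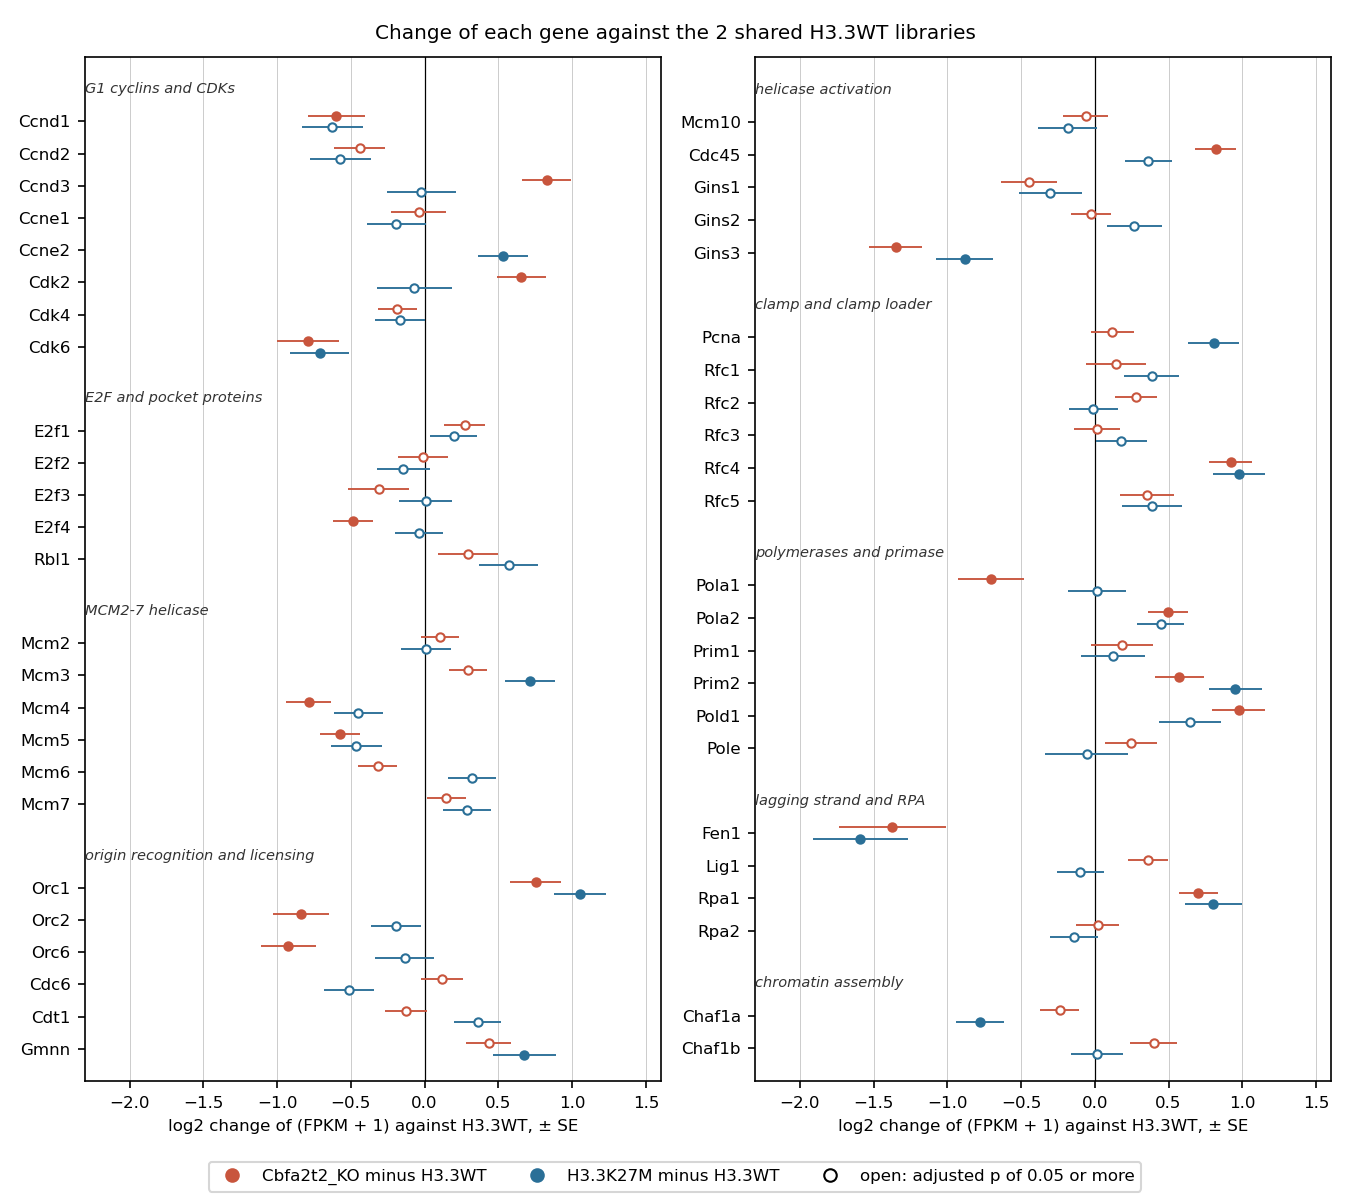
Change of each gene against H3.3WT on the log2(FPKM + 1) scale, with the SE from limma as bars, for Cbfa2t2_KO (red) and H3.3K27M (blue); filled points passed an adjusted p of 0.05 and open points did not. Both comparisons use the same 2 H3.3WT libraries, and values run from -1.59 for Fen1 in H3.3K27M to 1.05 for Orc1 in H3.3K27M.

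The plot of changes by role shows no role in which every member passed. In most of the 9 roles, filled points to the right of 0 stand beside open points or filled points to the left. An open point did not pass, which does not show that the gene stayed level. Among the clamp and clamp loader genes, every change in Cbfa2t2_KO was above 0 (0.01 to 0.92), though only Rfc4 passed. Both comparisons share the H3.3WT libraries, so positions on the same side of 0 in both are not independent.

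Among the D-type cyclins, which respond to growth signals, Ccnd3 rose and Ccnd1 fell in Cbfa2t2_KO cells. Ccnd3 (chr17:47505051-47599691, forward strand, 7 exons) read 7.79 and 9.21 FPKM in H3.3WT, 14.6 and 17.1 in Cbfa2t2_KO and 10.5 and 6.58 in H3.3K27M. Both Cbfa2t2_KO libraries stood above the other 4, and the H3.3K27M libraries lay on either side of H3.3WT. It rose by 0.83 ± 0.17 (SE) on the log2(FPKM + 1) scale in Cbfa2t2_KO (adjusted p = 0.00806) and was lower in H3.3K27M than in Cbfa2t2_KO by -0.85 ± 0.22 (adjusted p = 0.0474). Ccnd1 (chr7:144929931-144939925, reverse strand, 5 exons) read 9.08 and 6.65 FPKM in H3.3WT, 5.05 and 4.55 in Cbfa2t2_KO and 5.02 and 4.39 in H3.3K27M. It fell in Cbfa2t2_KO by 0.60 on the log2 scale (SE 0.19, adjusted p = 0.0445), while in H3.3K27M the change was -0.62 ± 0.21 and did not pass (adjusted p = 0.0565). Ccnd2 had the highest level of the 3 in H3.3WT and did not pass in either line (-0.44, adjusted p = 0.0857, and -0.57, adjusted p = 0.0718). The summed level of the 3 cyclins was 33.0 and 33.8 FPKM in H3.3WT and 33.8 and 32.3 in Cbfa2t2_KO, and 28.9 and 20.2 in H3.3K27M. Within that sum, Ccnd3 held 23.6% and 27.2% in H3.3WT, 43.2% and 52.9% in Cbfa2t2_KO and 36.3% and 32.5% in H3.3K27M. The sums of H3.3WT and Cbfa2t2_KO thus overlapped, while the Ccnd3 shares did not.

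The Ccnd1 call was lost under median-of-ratios scaling (-0.49, adjusted p = 0.0730) and without the first H3.3WT library or either Cbfa2t2_KO library (adjusted p = 0.0914 to 0.217), and the Ccnd3 rise without the second Cbfa2t2_KO library (0.72, adjusted p = 0.0634). In H3.3K27M, Ccnd1 passed in a fit of all 6 libraries (adjusted p = 0.0394), and Ccnd2 without the first H3.3K27M library (-0.82, adjusted p = 0.0305). The Ccnd3 difference between the edited lines was lost without the second H3.3K27M library (-0.55, adjusted p = 0.168), and also without either H3.3WT or either Cbfa2t2_KO library (-0.75 to -0.95, adjusted p = 0.0640 to 0.263). Exons of Ccnd3 overlap those of Bysl on the other strand, and strand was not stated for these libraries. Bysl itself fell, from 46.9 and 47.4 FPKM to 18.6 and 20.1 in Cbfa2t2_KO (-1.24, adjusted p = 0.000982), the opposite direction to Ccnd3.

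**Figure D3:**
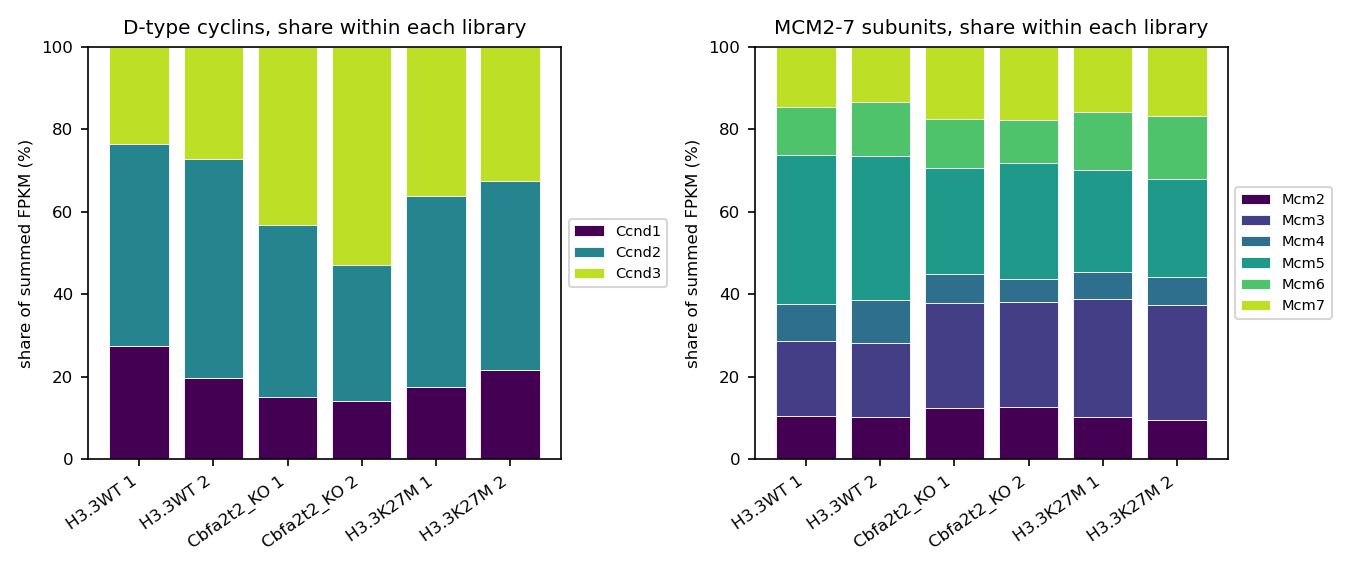
Stacked bars of the share of summed FPKM in each of the 6 libraries, for the 3 D-type cyclins (left) and the 6 subunits of the MCM ring (right). Ccnd3 takes 43.2% and 52.9% of the D-type cyclins in Cbfa2t2_KO against 23.6% and 27.2% in H3.3WT, and Mcm5 takes 36.1% and 34.9% of the MCM sum in H3.3WT and between 23.9% and 28.2% in the other 4 libraries.

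Of the kinases that these cyclins bind, Cdk6 fell in both edited lines and Cdk4, its close relative, did not pass in either. Cdk6 (chr5:3341485-3531008, forward strand, 8 exons) read 4.55 and 5.19 FPKM in H3.3WT, 3.03 and 1.85 in Cbfa2t2_KO and 2.95 and 2.24 in H3.3K27M. Both H3.3WT libraries were above all 4 of the edited lines. The change was -0.79 ± 0.21 for Cbfa2t2_KO (adjusted p = 0.0241) and -0.71 ± 0.20 for H3.3K27M (adjusted p = 0.0316). Cdk4 read 149.9 and 147.5 FPKM in H3.3WT and 122.7 to 142.7 in the other libraries, with changes of -0.18 (adjusted p = 0.322) and -0.17 (adjusted p = 0.499). Cdk4 was thus 28.5 to 75.4 times the level of Cdk6, depending on the library. The Cdk6 call in Cbfa2t2_KO was lost without the second Cbfa2t2_KO or the second H3.3WT library (-0.54 and -0.71, adjusted p = 0.127 and 0.106). In H3.3K27M it was lost without either H3.3WT library or the second H3.3K27M library (-0.57 to -0.79, adjusted p = 0.0999 to 0.168).

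Cdk2, the partner of cyclin E, rose in Cbfa2t2_KO, from 4.63 and 4.96 FPKM to 8.65 and 7.64. The groups did not overlap, and the change was 0.66 ± 0.17 (adjusted p = 0.0203). In H3.3K27M its libraries read 6.14 and 3.27 FPKM, on either side of H3.3WT (-0.07, adjusted p = 0.862). Leaving out any 1 of the 4 libraries ended the Cdk2 call (0.58 to 0.74, adjusted p = 0.0588 to 0.0855). Cyclin E1, Ccne1, read between 12.8 and 18.3 FPKM in all 6 libraries, and the groups overlapped. Cyclin E2, Ccne2, stood at 0.635 and 0.682 FPKM in H3.3WT, 0.668 and 0.457 in Cbfa2t2_KO and 1.57 and 1.24 in H3.3K27M. Its libraries of H3.3K27M were above the other 4, but the mean of the other comparisons was under the 1 FPKM needed for a test there. Ccne2 reached that filter against H3.3WT only through its level in H3.3K27M (means of 0.659 FPKM in H3.3WT and 1.40 in H3.3K27M). Its call is therefore not independent of the filter. The change in H3.3K27M was 0.53 ± 0.17 with an adjusted p of 0.04999, at the threshold, and did not pass without either H3.3WT library (0.51 and 0.55, adjusted p = 0.194 and 0.161).

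Of the 4 E2F factors, only E2f4 passed in the fits described above. E2f4, an E2F that acts mainly as a repressor with pocket proteins (chr8:105297663-105305370, forward strand, 10 exons), read 88.1 and 79.6 FPKM in H3.3WT, 58.0 and 61.2 in Cbfa2t2_KO and 81.7 and 81.2 in H3.3K27M. Both Cbfa2t2_KO libraries were the lowest of the 6. It fell by 0.48 on the log2 scale in Cbfa2t2_KO (SE 0.13, adjusted p = 0.0259) and had a change of -0.04 in H3.3K27M (adjusted p = 0.878), and the difference between the edited lines did not pass (0.45 ± 0.14, adjusted p = 0.0811). The E2f4 call was lost under median-of-ratios scaling (-0.36, adjusted p = 0.139) and without any 1 of the 4 libraries (-0.41 to -0.56, adjusted p = 0.0545 to 0.110). The activator E2f1 read 27.1 and 29.1 FPKM in H3.3WT and 31.9 to 36.4 in the edited lines, above both H3.3WT libraries but with changes of 0.27 and 0.20 that did not pass (adjusted p = 0.171 and 0.382). The activators E2f2 and E2f3 did not pass either (adjusted p of 0.27 or more in each comparison). Rbl1, which encodes the pocket protein p107, read 1.54 and 2.07 FPKM in H3.3WT, 2.93 and 1.98 in Cbfa2t2_KO and 3.54 and 2.78 in H3.3K27M, a change of 0.57 ± 0.20 in H3.3K27M that did not pass (adjusted p = 0.0672) but did under median-of-ratios scaling (0.67, adjusted p = 0.0299). Under the correction for transcript GC, length and number of exons, E2f1 passed in both lines (0.34 and 0.51, adjusted p = 0.0491 and 0.0233), as did the E2f4 difference between the edited lines (0.60, adjusted p = 0.0153).

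Promoters of these genes often hold the sequence that E2F factors bind, which is why the stretches around it are shown for genes that passed a test. RefSeq start sites on GRCm38.p6 were matched for 37 of the 48 members; the 11 others were Ccnd1, Ccnd2, Ccne2, E2f4, Mcm4, Gmnn, Gins1, Gins2, Rfc2, Prim2 and Pole. The window ran from 250 bases before to 50 after the start. In it, TTTCCCGC, TTTCGCGC, TTTGCCGC or TTTGGCGC, exact and on either strand, was found for 16 of 37 members (43.2%). That compares with 461 of 9443 genes present in both expression tables (4.88%). Counted by promoter, it was found in 16 of 45 promoters of members (35.6%), against 744 of all 32851 promoters (2.26%). The stretches below lie before the RefSeq start, read 5′ to 3′ on the gene's strand, with matches in capitals; neighbouring matches on opposite strands can share bases, as in Mcm5 and Mcm6. GENCODE vM21, the source of the gene positions given with the values, places some starts elsewhere: the Gins3 and Cdc6 stretches lie inside the GENCODE gene and that of Orc1 overlaps it. The stretches of Orc1, Gins3 and Cdk2, kept to 30 bases, touch a GENCODE exon on one or the other strand, and the other 4 touch none.
Orc1, chr4:108579416-108579445, forward strand: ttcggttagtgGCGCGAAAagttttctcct
Gins3, chr8:95633507-95633536, forward strand: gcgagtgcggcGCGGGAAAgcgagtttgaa
Cdk2, chr10:128705173-128705202, reverse strand: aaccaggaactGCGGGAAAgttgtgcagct
Cdc6, chr11:98907983-98908050, forward strand: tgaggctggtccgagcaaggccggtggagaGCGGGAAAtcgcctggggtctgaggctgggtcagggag
Pola1, chrX:93632256-93632323, reverse strand: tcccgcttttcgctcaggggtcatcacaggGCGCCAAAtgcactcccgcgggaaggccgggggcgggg
Mcm5, chr8:75109326-75109397, forward strand: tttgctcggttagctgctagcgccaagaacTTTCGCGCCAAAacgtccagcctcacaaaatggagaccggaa
Mcm6, chr1:128359715-128359845, reverse strand: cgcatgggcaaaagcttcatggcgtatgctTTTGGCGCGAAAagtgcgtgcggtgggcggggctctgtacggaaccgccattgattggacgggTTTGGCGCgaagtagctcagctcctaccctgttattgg

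Genes with a match did not share a direction. Of the 16 with a match, 3 were higher and 3 lower in Cbfa2t2_KO, and 2 were higher and 1 lower in H3.3K27M. Of the 21 without one, 5 were higher and 4 lower in Cbfa2t2_KO, and 3 were higher and 3 lower in H3.3K27M. Over all genes tested, 13.1% were higher and 21.5% lower in Cbfa2t2_KO, and 8.42% higher and 17.8% lower in H3.3K27M. Whether a match goes with a call was not tested. Orc1, which rose in both lines, and Gins3, which fell in both, each carry 1 match, which begins 27 and 41 bases before the RefSeq start and lies in a GENCODE exon. A match is a run of letters and does not show that a factor was bound in these cells.

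Subunits of the origin recognition complex, which marks origins throughout the cycle, moved apart. Orc1, the subunit that comes and goes with the cell cycle (chr4:108579423-108614833, forward strand, 17 exons), read 5.76 and 5.91 FPKM in H3.3WT, 11.8 and 9.35 in Cbfa2t2_KO and 13.3 and 13.1 in H3.3K27M. Every library of the edited lines was above both H3.3WT libraries. It rose by 0.75 ± 0.18 in Cbfa2t2_KO (adjusted p = 0.0143). Its rise in H3.3K27M was 1.05 ± 0.17 (adjusted p = 0.00492). The second call held with each library left out, and the first was lost without the first Cbfa2t2_KO library (0.60, adjusted p = 0.0746). Orc6 (chr8:85299632-85308278, forward strand, 6 exons) read 20.2 and 28.1 FPKM in H3.3WT, 12.6 and 11.5 in Cbfa2t2_KO and 20.1 and 23.2 in H3.3K27M. The Cbfa2t2_KO libraries were the lowest of the 6, and H3.3K27M overlapped H3.3WT. It fell by 0.92 on the log2 scale in Cbfa2t2_KO (SE 0.18, adjusted p = 0.00777), and in H3.3K27M it was higher than in Cbfa2t2_KO by 0.79 ± 0.19 (adjusted p = 0.0392). Orc2 fell in Cbfa2t2_KO as well, from 19.5 and 22.3 FPKM to 13.4 and 9.43 (-0.84 ± 0.19, adjusted p = 0.0127), and read 19.1 and 17.2 in H3.3K27M (-0.19, adjusted p = 0.422), where it passed as lower under the correction for transcript GC, length and number of exons (-0.55, adjusted p = 0.0173). The ratio of Orc1 to Orc6 was 0.286 and 0.211 in H3.3WT, 0.933 and 0.810 in Cbfa2t2_KO and 0.663 and 0.564 in H3.3K27M.

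The Orc6 and Orc2 calls in Cbfa2t2_KO were lost without the second Cbfa2t2_KO library (-0.86 and -0.60, adjusted p = 0.0609 and 0.0800), and that of Orc2 also without the second H3.3WT library (-0.75, adjusted p = 0.0612). The Orc6 difference between the edited lines was lost without any 1 of their 4 libraries (0.69 to 0.89, adjusted p = 0.0528 to 0.229). Orc2 shares exon sequence with Nif3l1 on the other strand, which fell too (-1.02, adjusted p = 0.00265), and Orc6 with Vps35, which did not pass (-0.32, adjusted p = 0.382). Nif3l1 also fell in H3.3K27M (-0.69, adjusted p = 0.0233). Between the edited lines Vps35 changed by 0.87, the direction of Orc6, and did not pass (adjusted p = 0.0691). It passed under median-of-ratios scaling (0.89, adjusted p = 0.0438). Of 24 members called in at least 1 line, 12 overlap such a gene, among them Cdc45, Cdk2, Chaf1a and Ccne2. Of all 48 members, 20 do, so the count among called members is near that of the members as a whole.

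**Figure D4:**
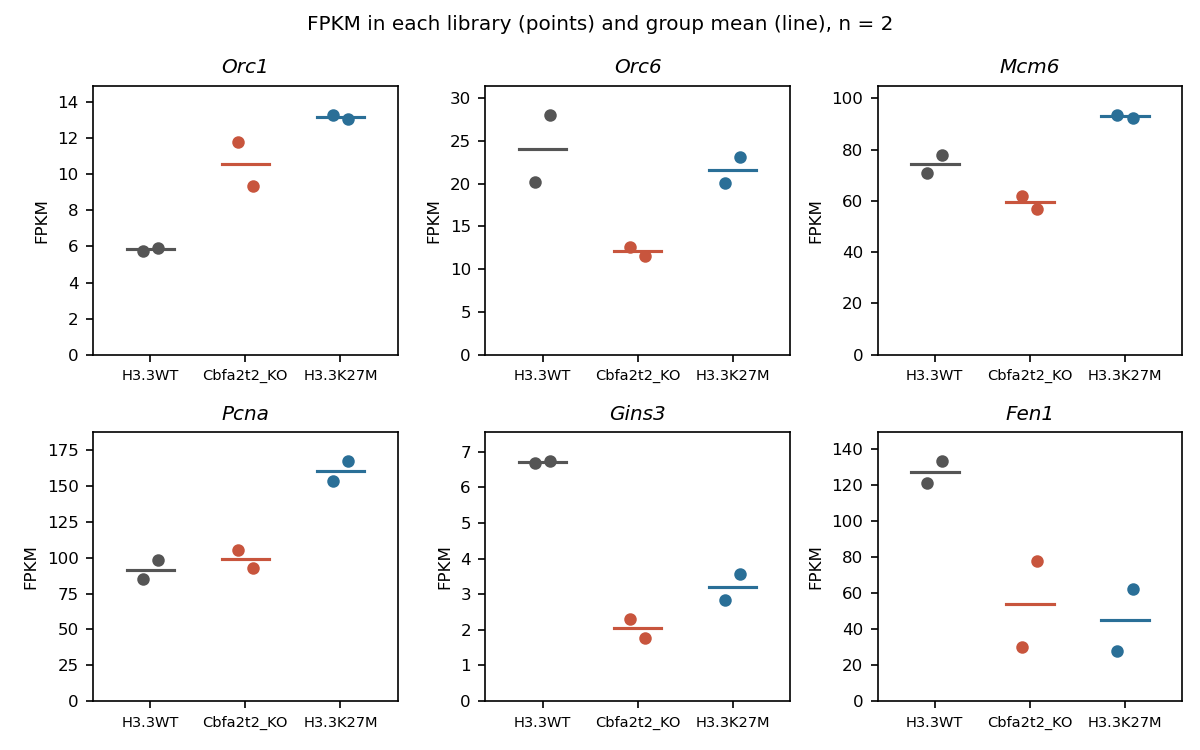
FPKM of Orc1, Orc6, Mcm6, Pcna, Gins3 and Fen1 in each library (points) with the group mean as a line, n = 2, on axes that start at 0. Orc1 is above H3.3WT in every library of the edited lines, Gins3 and Fen1 are below it, Orc6 is low in Cbfa2t2_KO, and Mcm6 and Pcna are highest in H3.3K27M.

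The plot of 6 selected genes sets the patterns seen among these genes side by side: a shift in both edited lines (Orc1, Gins3, Fen1), a shift in Cbfa2t2_KO (Orc6), and a difference between the edited lines with H3.3K27M highest (Mcm6, Pcna). It also shows how far apart the 2 Fen1 libraries of each edited line were.

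The loading factors Cdc6 and Cdt1 bring the MCM ring to the origin. The ratio of Cdt1 to Cdc6, which was not tested, was higher in both H3.3K27M libraries than in the other 4. Cdc6 (chr11:98907801-98923940, forward strand, 12 exons) read 20.1 and 18.2 FPKM in H3.3WT, 20.6 and 21.1 in Cbfa2t2_KO and 13.7 and 12.6 in H3.3K27M. H3.3K27M was the lowest group without overlap. It was lower in H3.3K27M than in Cbfa2t2_KO by -0.63 ± 0.15 (adjusted p = 0.0401), while the change from H3.3WT was -0.51 ± 0.17 and did not pass (adjusted p = 0.0549). Cdt1 read 47.5 and 44.2 FPKM in H3.3WT, 38.7 and 45.4 in Cbfa2t2_KO and 61.4 and 56.8 in H3.3K27M. Its changes did not pass (0.36, adjusted p = 0.128 from H3.3WT; 0.48, adjusted p = 0.0765 from Cbfa2t2_KO). The ratio of Cdt1 to Cdc6 was 4.50 and 4.49 in H3.3K27M, 2.36 and 2.42 in H3.3WT and 1.88 and 2.15 in Cbfa2t2_KO. Geminin, Gmnn, the inhibitor of Cdt1, read 18.6 and 22.7 FPKM in H3.3WT, 27.7 and 28.6 in Cbfa2t2_KO and 27.8 and 40.3 in H3.3K27M. It was above H3.3WT in all 4 libraries of the edited lines, rose in H3.3K27M (0.68 ± 0.21, adjusted p = 0.0472) and did not pass in Cbfa2t2_KO (0.43 ± 0.15, adjusted p = 0.0570). The Cdc6 difference was lost when any 1 of the 6 libraries was left out (-0.58 to -0.68, adjusted p = 0.0566 to 0.232), and the Gmnn rise without either H3.3WT library or the second H3.3K27M library (0.42 to 0.81, adjusted p = 0.107 to 0.235). Under the correction for transcript GC, length and number of exons, Cdc6 passed against H3.3WT (-0.52, adjusted p = 0.0222) and Cdt1 in H3.3K27M against both other lines (0.48 and 0.69, adjusted p = 0.0264 and 0.0121). Median-of-ratios scaling brought Gmnn past the threshold in Cbfa2t2_KO (0.56, adjusted p = 0.0248).

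The 6 subunits of the MCM2-7 ring, which act in equal numbers in the assembled helicase, did not move together. Mcm5 (chr8:75109569-75128439, forward strand, 17 exons) read 219.3 and 207.3 FPKM in H3.3WT, 134.5 and 151.9 in Cbfa2t2_KO and 164.4 and 144.9 in H3.3K27M. H3.3WT was above the other 4 libraries. It fell by 0.57 on the log2 scale in Cbfa2t2_KO (SE 0.14, adjusted p = 0.0157), and the change of -0.46 in H3.3K27M did not pass (adjusted p = 0.0791). Mcm4 (chr16:15623897-15637400, reverse strand, 16 exons) read 54.0 and 61.9 FPKM in H3.3WT, 36.6 and 30.003 in Cbfa2t2_KO and 43.7 and 40.6 in H3.3K27M, 3 groups without overlap. It fell by 0.79 in Cbfa2t2_KO (SE 0.15, adjusted p = 0.00723) and had a change of -0.45 in H3.3K27M (adjusted p = 0.0758). Mcm3 (chr1:20802968-20820312, reverse strand, 17 exons) went the other way, with 110.5 and 108.1 FPKM in H3.3WT, 132.2 and 136.8 in Cbfa2t2_KO and 191.1 and 169.6 in H3.3K27M. It rose by 0.71 ± 0.17 in H3.3K27M (adjusted p = 0.0171) and did not pass in Cbfa2t2_KO (0.30, adjusted p = 0.107). Mcm6 read 70.8 and 77.8 FPKM in H3.3WT, 61.9 and 56.8 in Cbfa2t2_KO and 93.6 and 92.5 in H3.3K27M. H3.3WT lay between the edited lines, neither of which passed against it (-0.32, adjusted p = 0.101, and 0.32, adjusted p = 0.168), and H3.3K27M was higher than Cbfa2t2_KO by 0.64 ± 0.14 (adjusted p = 0.0334). Mcm2 and Mcm7 did not pass in any comparison.

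The share of each subunit in the MCM sum shows the same shift. Mcm5 made up 36.1% and 34.9% of the 6 in H3.3WT, 25.8% and 28.2% in Cbfa2t2_KO and 24.7% and 23.9% in H3.3K27M, and Mcm3 made up 18.2% in both H3.3WT libraries, 25.4% in both of Cbfa2t2_KO and 28.8% and 28.0% in H3.3K27M. Mcm5 was the highest subunit in H3.3WT and Cbfa2t2_KO, and Mcm3 in both H3.3K27M libraries, while the sum itself ran from 521.4 to 664.8 FPKM. The Mcm5 call was lost under median-of-ratios scaling (-0.44, adjusted p = 0.0867) and without either H3.3WT or the first Cbfa2t2_KO library (-0.49 to -0.61, adjusted p = 0.0567 to 0.0739). Without the second Cbfa2t2_KO library the Mcm4 call was lost (-0.65, adjusted p = 0.0597), without either H3.3WT library that of Mcm3 (0.70 and 0.73, adjusted p = 0.123 and 0.108), and without any 1 of the 6 libraries that of Mcm6 (0.58 to 0.70, adjusted p = 0.0548 to 0.231). Under the correction for transcript GC, length and number of exons, Mcm5 and Mcm4 passed in H3.3K27M (-0.53 and -0.75, adjusted p = 0.0128 and 0.00625), Mcm6 in Cbfa2t2_KO (-0.44, adjusted p = 0.0171) and Mcm3 between the edited lines (0.54, adjusted p = 0.0153).

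Among the factors that switch the loaded ring into an active helicase, Gins3 fell in both lines and Cdc45 rose in Cbfa2t2_KO. Gins3, a subunit of the GINS complex (chr8:95633453-95645060, forward strand, 3 exons), read 6.70 and 6.74 FPKM in H3.3WT, 2.31 and 1.77 in Cbfa2t2_KO and 2.83 and 3.58 in H3.3K27M. The 2 H3.3WT libraries nearly coincided and stood above all others. It fell by 1.35 on the log2 scale in Cbfa2t2_KO (SE 0.18, adjusted p = 0.00170), a call kept with each library left out, and by 0.88 in H3.3K27M (SE 0.19, adjusted p = 0.0131), a call lost without either H3.3WT library (-0.88 and -0.89, adjusted p = 0.0790 and 0.0733). The other GINS subunits measured, Gins1 and Gins2, did not pass in the fits described above. Under the correction for transcript GC, length and number of exons Gins1 passed as lower in both lines (-0.62 and -0.69, adjusted p = 0.0279 and 0.0216, from -0.45 and -0.30 without it), and Gins2 as higher in H3.3K27M (0.66, adjusted p = 0.0351). Without the first H3.3WT library Gins1 also passed in Cbfa2t2_KO (-0.69, adjusted p = 0.0291). The ratio of Gins3 to Gins2 was 0.280 and 0.287 in H3.3WT, 0.0975 and 0.0775 in Cbfa2t2_KO and 0.114 and 0.107 in H3.3K27M. Cdc45, the partner of GINS on the ring (chr16:18780447-18811987, reverse strand, 20 exons), read 22.5 and 21.7 FPKM in H3.3WT, 37.6 and 42.2 in Cbfa2t2_KO and 28.2 and 29.2 in H3.3K27M. The 3 groups did not overlap. It rose in Cbfa2t2_KO by 0.82 ± 0.14 (adjusted p = 0.00407), also with each library left out, and had changes that did not pass in H3.3K27M (0.36, adjusted p = 0.124) and between the edited lines (-0.46, adjusted p = 0.0802); the first passed under quantile normalization (0.54, adjusted p = 0.0377) and the second under that correction (-0.50, adjusted p = 0.0300). Mcm10, which takes part in activation of the helicase, read 9.86 to 13.8 FPKM with overlap between all groups.

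Pcna, the sliding clamp, rose in H3.3K27M and did not pass in Cbfa2t2_KO (0.12, adjusted p = 0.553), and the difference between the edited lines passed. It read 84.8 and 98.1 FPKM in H3.3WT, 105.7 and 92.8 in Cbfa2t2_KO and 153.1 and 167.2 in H3.3K27M (chr2:132249162-132253314, reverse strand, 6 exons). Both H3.3K27M libraries stood clear of the other 4, which overlapped. It rose in H3.3K27M by 0.80 ± 0.17 against H3.3WT (adjusted p = 0.0121) and was 0.69 ± 0.16 higher there than in Cbfa2t2_KO (adjusted p = 0.0347). Both calls were lost without either H3.3WT library (0.69 to 0.91, adjusted p = 0.0539 to 0.113), and the second also without either Cbfa2t2_KO or the second H3.3K27M library (0.59 to 0.78, adjusted p = 0.0791 to 0.241). Pcna has a near copy, the pseudogene Pcna-ps2, singled out after its values were seen, so the split of reads between them is uncertain. That row read 18.6 and 24.1 FPKM in H3.3WT, 26.0 and 22.04 in Cbfa2t2_KO and 33.7 and 44.6 in H3.3K27M, with H3.3K27M highest, as for Pcna.

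In the clamp loader, Rfc4 stood apart from the other subunits. Rfc4 (chr16:23113943-23127737, reverse strand, 10 exons) read 16.4 and 14.6 FPKM in H3.3WT, 31.6 and 28.9 in Cbfa2t2_KO and 28.7 and 34.3 in H3.3K27M. All 4 libraries of the edited lines were above both H3.3WT libraries. It rose by 0.92 ± 0.15 in Cbfa2t2_KO (adjusted p = 0.00305), with each library left out too, and by 0.98 ± 0.17 in H3.3K27M (adjusted p = 0.00633). The second rise was lost without the second H3.3WT library (0.90, adjusted p = 0.0583) and under the correction for transcript GC, length and number of exons (0.40, adjusted p = 0.0682). Rfc1, Rfc2, Rfc3 and Rfc5 did not pass in these fits, though Rfc1 did in H3.3K27M under quantile normalization (0.58, adjusted p = 0.0473) and Rfc5 in Cbfa2t2_KO without the first H3.3WT library (0.61, adjusted p = 0.0370). The share of Rfc4 in the sum of the 5 was 19.9% and 19.3% in H3.3WT, 29.6% and 27.7% in Cbfa2t2_KO and 27.9% and 31.4% in H3.3K27M. Its exons overlap those of Eif4a2 on the other strand, which rose in H3.3K27M (1.00, adjusted p = 0.00783, lost without the first H3.3WT library, adjusted p = 0.0661) and did not pass in Cbfa2t2_KO (0.07, adjusted p = 0.810).

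Among polymerases, the subunits of the alpha-primase complex moved in opposite directions in Cbfa2t2_KO. The catalytic subunit Pola1 (chrX:93304767-93632155, reverse strand, 37 exons) read 1.94 and 2.68 FPKM in H3.3WT, 1.43 and 0.676 in Cbfa2t2_KO and 2.45 and 2.19 in H3.3K27M. The Cbfa2t2_KO libraries were the lowest of the 6. It fell there by 0.70 on the log2 scale (SE 0.22, adjusted p = 0.0421), lost without the second library of Cbfa2t2_KO or of H3.3WT (-0.44 and -0.54, adjusted p = 0.218 and 0.194). Its partner Pola2 read 31.7 and 29.3 FPKM in H3.3WT, 42.3 and 44.3 in Cbfa2t2_KO and 41.9 and 41.8 in H3.3K27M. The edited lines were above H3.3WT in every library. It rose in Cbfa2t2_KO (0.49 ± 0.13, adjusted p = 0.0246) and did not pass in H3.3K27M (0.45 ± 0.16, adjusted p = 0.0691). The primase subunit Prim2 (chr1:33453810-33669795, reverse strand, 14 exons) read 4.42 and 4.22 FPKM in H3.3WT, 7.17 and 6.67 in Cbfa2t2_KO and 9.54 and 9.06 in H3.3K27M, 3 groups without overlap. It rose by 0.57 ± 0.17 in Cbfa2t2_KO (adjusted p = 0.0317), and the rise in H3.3K27M was 0.95 ± 0.18 (adjusted p = 0.00765). The catalytic primase Prim1 read 5.38 to 8.47 FPKM and did not pass in any comparison.

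For the leading and lagging strand polymerases, Pold1, the catalytic subunit of polymerase delta, rose in Cbfa2t2_KO from 21.8 and 15.6 FPKM to 35.1 and 39.5. Its libraries in H3.3K27M read 32.8 and 26.4, also above H3.3WT. The change was 0.98 ± 0.18 in Cbfa2t2_KO (adjusted p = 0.00578). For H3.3K27M it was 0.65 ± 0.21, where it stood just outside the threshold (adjusted p = 0.0503). Pole, the catalytic subunit of polymerase epsilon, read 5.20 to 10.3 FPKM and did not pass in any comparison. Without the second Cbfa2t2_KO library the Pold1 call was lost (0.89, adjusted p = 0.0548), and the Pola2 call was lost without either Cbfa2t2_KO or the second H3.3WT library (0.44 to 0.53, adjusted p = 0.0726 to 0.119). The Prim2 call was lost in Cbfa2t2_KO without any 1 library (0.53 to 0.62, adjusted p = 0.0782 to 0.117) and in H3.3K27M without the second H3.3WT library (0.92, adjusted p = 0.0596). The correction for transcript GC, length and number of exons ended the Pola2 and Prim2 calls in Cbfa2t2_KO (0.24 and 0.31, adjusted p = 0.0858 and 0.0806) and brought Pold1 past the threshold in H3.3K27M (0.80, adjusted p = 0.00933). Median-of-ratios scaling did so for Pola2 in H3.3K27M (0.59, adjusted p = 0.0407).

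Fen1, the flap endonuclease that trims lagging strand fragments, fell in both lines, with replicates far apart in each of them. Fen1 (chr19:10199132-10204169, reverse strand, 3 exons) read 121.2 and 133.0 FPKM in H3.3WT, 30.04 and 77.8 in Cbfa2t2_KO and 27.6 and 62.4 in H3.3K27M. Every library of the edited lines was below both H3.3WT libraries, and in each edited line the second library was over 2 times the first. It fell by 1.37 in Cbfa2t2_KO (SE 0.36, adjusted p = 0.0222) and by 1.59 in H3.3K27M (SE 0.32, adjusted p = 0.00973) on the log2 scale. Without the first and the second Cbfa2t2_KO library the change there was -0.70 and -2.04, and without the first H3.3K27M library it was -1.01 in that line. Both calls were lost without the second H3.3WT library (-1.31 and -1.52, adjusted p = 0.0761 and 0.0593), and the first also in limma's robust fit (adjusted p = 0.163). Its exons overlap those of Tmem258 on the other strand, which did not pass in either line (-0.14 and -0.24, adjusted p = 0.438 and 0.309). Lig1, the ligase that seals the fragments after Fen1, did not pass in these fits, but did in Cbfa2t2_KO under median-of-ratios scaling (0.49, adjusted p = 0.0438). The ratio of Fen1 to Lig1 was 3.18 and 3.93 in H3.3WT, 0.649 and 1.67 in Cbfa2t2_KO and 0.831 and 1.84 in H3.3K27M.

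Rpa1, the large subunit of the single-strand binding protein (chr11:75298166-75348324, reverse strand, 17 exons), rose in both lines while Rpa2 did not pass in either. Rpa1 read 26.3 and 25.3 FPKM in H3.3WT, 42.0 and 43.1 in Cbfa2t2_KO and 38.7 and 54.1 in H3.3K27M. The edited lines lay above H3.3WT in all 4 libraries. The change was 0.70 ± 0.13 in Cbfa2t2_KO (adjusted p = 0.00614), a call kept with each library left out. In H3.3K27M it was 0.80 ± 0.19 (adjusted p = 0.0192), lost without either H3.3WT library or the second H3.3K27M library (0.57 to 0.83, adjusted p = 0.0778 to 0.110) and under the correction for transcript GC, length and number of exons (0.73, adjusted p = 0.0531). Rpa2 read 33.5 to 40.9 FPKM in the 6 libraries, with changes of 0.02 and -0.14 that did not pass (adjusted p = 0.926 and 0.544).

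Of the CAF-1 chaperone subunits, which place H3.1 and H4 behind the fork, Chaf1a fell in H3.3K27M. Chaf1a (chr17:56040439-56072289, forward strand, 14 exons) read 59.9 and 65.8 FPKM in H3.3WT, 51.3 and 54.9 in Cbfa2t2_KO and 37.8 and 34.7 in H3.3K27M, 3 groups without overlap. It fell by 0.78 on the log2 scale in H3.3K27M (SE 0.16, adjusted p = 0.0110), lost without either H3.3WT library (-0.71 and -0.84, adjusted p = 0.0973 and 0.0573). The change in Cbfa2t2_KO was -0.24 (adjusted p = 0.200), and the difference between the edited lines fell just short (-0.54 ± 0.14, adjusted p = 0.0531). Chaf1b read 15.5 and 18.9 FPKM in H3.3WT, 21.3 and 24.5 in Cbfa2t2_KO and 16.9 and 17.7 in H3.3K27M; it passed in Cbfa2t2_KO under median-of-ratios scaling (0.52, adjusted p = 0.0401) and not in the fit without it (0.40, adjusted p = 0.0896). The ratio of Chaf1a to Chaf1b was 3.86 and 3.48 in H3.3WT and 1.96 to 2.41 in the edited lines.

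Other genes of the pathway were read from a list of 62 that holds none of the members. Of 61 tested, 8 were higher and 10 lower in Cbfa2t2_KO, 7 were higher and 1 lower in H3.3K27M, and 5 were higher and 2 lower in H3.3K27M than in Cbfa2t2_KO, with median log2 changes of -0.23, 0.00 and 0.18 beside -0.11, -0.12 and -0.02 over all genes. The shares called were 29.5%, 13.1% and 11.5%, beside 34.6%, 26.2% and 8.07% of all genes. Pold2, the partner of Pold1 in polymerase delta, read 57.3 and 65.1 FPKM in H3.3WT, 103.2 and 125.8 in Cbfa2t2_KO and 69.0 and 66.2 in H3.3K27M. It rose in Cbfa2t2_KO (0.89 ± 0.15, adjusted p = 0.00421), as Pold1 did, and was lower in H3.3K27M than in Cbfa2t2_KO (-0.74 ± 0.16, adjusted p = 0.0294). Rrm2, the regulated subunit of ribonucleotide reductase, which makes DNA building blocks, read 15.7 and 17.8 FPKM in H3.3WT, 29.9 and 27.5 in Cbfa2t2_KO and 31.3 and 30.7 in H3.3K27M. It rose in both lines (0.75 and 0.86, adjusted p = 0.00701 and 0.00818). Dna2, a nuclease that like Fen1 cuts flaps on the lagging strand, went from 1.81 and 1.93 FPKM in H3.3WT to 4.80 and 3.75 in Cbfa2t2_KO and 4.59 and 3.85 in H3.3K27M. It rose in both lines (0.87 and 0.86, adjusted p = 0.00938 and 0.0131), in the opposite direction to Fen1. Tipin, a fork protection factor, read 28.1 and 32.7 FPKM in H3.3WT, 20.2 and 16.4 in Cbfa2t2_KO and 35.4 and 41.6 in H3.3K27M. It fell in Cbfa2t2_KO (-0.70 ± 0.16, adjusted p = 0.0135) and was higher in H3.3K27M than in Cbfa2t2_KO (1.03 ± 0.17, adjusted p = 0.0147). The Tipin fall was lost without the second Cbfa2t2_KO or second H3.3WT library (adjusted p = 0.0932 and 0.0681), and its difference between the edited lines without the second library of either (adjusted p = 0.133 and 0.0610). In H3.3K27M the Rrm2 rise was lost without the first H3.3WT library (0.77, adjusted p = 0.0714) and the Dna2 rise without either (adjusted p = 0.0815 and 0.0708), and the Pold2 difference was lost without either Cbfa2t2_KO or the second H3.3K27M library (adjusted p = 0.0569 to 0.222).

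The inhibitors of the G1 kinases were measured alongside. Cdkn2a, which encodes the Cdk4 and Cdk6 inhibitor p16INK4a and also ARF, read 6.60 and 6.65 FPKM in H3.3WT, 53.3 and 60.3 in Cbfa2t2_KO and 12.2 and 17.6 in H3.3K27M (2.92 ± 0.14, adjusted p = 0.000109, and 1.04 ± 0.21, adjusted p = 0.00968). In the direct test, Cdkn2a was lower in H3.3K27M than in Cbfa2t2_KO (-1.88 ± 0.19, adjusted p = 0.0031). It was the only 1 of 4 inhibitors tested that passed in any comparison, and its rise in H3.3K27M was lost without either H3.3WT or the second H3.3K27M library (0.79 to 1.04, adjusted p = 0.0502 to 0.0594). The kinase inhibitor Cdkn1b read 17.7 and 6.63 FPKM in H3.3WT, a gap between replicates wider than any difference between groups, and passed as lower in both edited lines without the second H3.3WT library (-1.30 and -1.21, adjusted p = 0.0115 and 0.0284). Cdkn1a read 1.91 to 3.78 FPKM in the 6 libraries. Of 31 genes of G2 and mitosis, 7 were higher and 0 lower in Cbfa2t2_KO and 14 were higher and 0 lower in H3.3K27M, with median log2 changes of 0.33 and 0.48, beside 0.10 and 0.01 for the replication members and -0.11 and -0.12 over all genes. The shares higher were 22.6% and 45.2%, beside 13.1% and 8.42% of all genes, of which 34.6% and 26.2% were called in either direction. Cyclin A2, Ccna2, which acts in S phase and G2, read 12.6 and 11.8 FPKM in H3.3WT, 26.0 and 20.6 in Cbfa2t2_KO and 30.4 and 29.7 in H3.3K27M (0.87, adjusted p = 0.00603, and 1.23, adjusted p = 0.00226).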

How the data were processed

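Poly(A) RNA from 6 NE-4C libraries was sequenced. The submitters' processing notes name Trim Galore, HISAT2, StringTie, DESeq and the build GRCm38, with no versions. The authors deposited FPKM per gene in 2 tables of 14431 and 14318 genes, in which each gene reached about 0.500 FPKM in some library; for all 14082 shared genes both tables gave the same H3.3WT values. Low values were not whole multiples of 1 read (best share 0.278 to 0.312 within a tolerance of 0.1), so depth is unknown and no count test was used. Columns were matched to groups by name; those of H3.3K27M and H3.3WT carry a letter code and no sample of their own, so library numbers only name columns.

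log2(FPKM + 1) was fitted with limma 3.58.1 (R 4.3.3; eBayes with trend, two-sided, Benjamini-Hochberg over all genes averaging 1 FPKM or more over the comparison's libraries, threshold 0.05). Comparisons with H3.3WT used the 4 libraries of both groups; H3.3K27M against Cbfa2t2_KO used all 6 over genes in both tables. The pseudocount of 1 understates changes of low genes. An exact permutation test of 2 against 2 libraries cannot give less than p = 0.333 and was not used. Scripts were tested on simulated data. Gene positions and exon counts (longest transcript of the gene's own type) are from GENCODE vM21 on GRCm38, in which 14410 and 14300 of the gene IDs were found. Members, lists and tests were chosen with earlier results of these data known. Every member may be named; from each other list the rule allows up to 5 genes with the largest rise and 5 with the largest fall among those that passed, plus the CDK inhibitors and the edited genes; overlapping neighbours and printed promoter stretches were chosen after values were seen. Alternatives were another pseudocount, other filters, scalings and eBayes settings, a correction for transcript GC, length and number of exons, other libraries in the fit, and each library left out; a replicate block by the column numbers was added after the column names were seen.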

Additional observations from a re-analysis of the deposited data

How the results depend on the processing

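No member changed sign past the threshold under any of the 16 alternatives. Of 36 calls of a member in a comparison, 20 were kept under each alternative other than leaving out 1 library. For H3.3K27M against Cbfa2t2_KO, those alternatives include the fit of 4 libraries, without H3.3WT. Of the 20, 5 were also kept with each library left out: Cdc45, Gins3, Rfc4 and Rpa1 in Cbfa2t2_KO and Orc1 in H3.3K27M. Counts of members called ran from 7 to 16 (Cbfa2t2_KO), 1 to 12 (H3.3K27M) and 0 to 3 (H3.3K27M against Cbfa2t2_KO) with 1 library left out, and counts of all genes from 1915 to 3038, 1007 to 2790 and 40 to 827. Requiring a log2 change of at least 1 left 2, 2 and 0 members and 1073, 987 and 234 genes. For H3.3K27M against Cbfa2t2_KO, median-of-ratios scaling called 8 members, the correction for transcript GC, length and number of exons 8 members and 1486 genes, and the fit of 4 libraries 1 member and 554 genes. Beside the calls named with their values above, Ccnd1 was lost in Cbfa2t2_KO under the transcript correction (adjusted p = 0.107) and quantile normalization (0.104), Cdk2 in a fit of all 6 libraries (0.0677), Pola1 with a pseudocount of 0.1 (0.0515) or no filter (0.0506), and, in H3.3K27M, Gmnn and Ccne2 under that correction (0.0719 and 0.268), without trend, with no filter and with the pseudocount of 0.1 (0.0523 to 0.0622); the Ccnd3 difference between the edited lines was lost under the same 4 settings and in the fit of 4 libraries (0.0501 to 0.110); the cause was not tested. The transcript correction kept but lowered the calls of Cdc45 (0.51) and Cdk6 (-0.45) in Cbfa2t2_KO, Prim2 (0.57) and Pcna (0.50) in H3.3K27M and Pcna between the edited lines (0.44). Where leaving out a library left a group with 1 sample, that sample was assumed to vary like the other groups. Such fits have less power, so a call can be lost while the change stays as large.

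The labels carry no replicate numbers, and those in the column names are not known to pair the libraries. Same-numbered deviations correlated at -0.15 (H3.3WT with Cbfa2t2_KO), 0.13 (H3.3WT with H3.3K27M) and 0.27 (Cbfa2t2_KO with H3.3K27M). With 2 libraries per group, these values cannot show whether same-numbered libraries shared a batch. With a replicate block on those numbers, added after the data were seen, 17, 19 and 6 members passed in place of 19, 12 and 5. Of all genes, 3481, 4205 and 1304 passed in place of 4028, 3049 and 925. The unknown depth limits what can be said of genes under about 1 FPKM, such as Ccne2.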

Other observations

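Several genes of the wider replication list not described above also moved. In Cbfa2t2_KO, Fbxo5, an inhibitor of the anaphase-promoting complex, fell from 40.0 and 36.8 to 21.7 and 16.8 FPKM (-0.97 ± 0.16, adjusted p = 0.00392). Its H3.3K27M libraries read 28.3 and 29.0 FPKM and did not pass against H3.3WT (-0.41, adjusted p = 0.0910). Under the transcript correction they did (-0.58, adjusted p = 0.0257). Cdca7, a cofactor of DNA methylation maintenance, fell there from 64.0 and 66.8 to 34.7 and 33.2 FPKM (-0.93 ± 0.13, adjusted p = 0.00204). Its H3.3K27M libraries read 52.4 and 56.3 FPKM and did not pass against H3.3WT (-0.26, adjusted p = 0.246). They were higher than Cbfa2t2_KO by 0.66 ± 0.14 (adjusted p = 0.0290). That call was lost without either Cbfa2t2_KO or the second H3.3K27M library (0.61 to 0.70). Hells, the partner of Cdca7 in chromatin remodelling, read 4.70 and 6.50 FPKM in H3.3WT, 8.12 and 5.11 in Cbfa2t2_KO and 12.8 and 12.0 in H3.3K27M. It rose in H3.3K27M (1.04 ± 0.20, adjusted p = 0.00829), a call lost without the first H3.3WT library (0.84, adjusted p = 0.0673). Pole3, a histone-fold subunit of polymerase epsilon, fell in both edited lines. In H3.3K27M it went from 48.9 and 54.6 to 26.7 and 30.2 FPKM (-0.84 ± 0.17, adjusted p = 0.00887), lost without the second H3.3WT library (-0.76). In Cbfa2t2_KO it read 33.7 and 31.0 FPKM (-0.66, adjusted p = 0.00945), lost without the second Cbfa2t2_KO library (-0.60).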
